A study of Homo sapiens with 30 samples.

Results

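The 38 genes described here code for the proteins that take up glucose and break it down to lactate, the sensors of low oxygen, and a group of genes known to be induced by low oxygen. They were chosen by name, as a list of glycolysis and hypoxia response genes, with earlier results of these data known. Counts of members set beside shares of all genes are therefore descriptive. All 38 were found in both deposited count tables, among 40950 gene identifiers present in either table. The study transplanted MDA-MB-231 cells, an established human line of triple-negative, mesenchymal breast cancer, into NSG mice, which lack T, B and NK cells. The cells carried LeGO lentiviral barcodes, and cells of subclones 2 and 13 were sorted before their RNA was sequenced. In the first experiment both subclones were recovered from the primary tumour, the lung metastases and the liver metastases of mice 1, 2 and 3, which gives 6 groups of 3 samples. In a retransplantation experiment subclone 2 was recovered from lung and liver metastases of mice 4, 5 and 6, which gives 2 groups of 3 samples; a primary tumour of that experiment was not analysed here. All groups share the cell line, the barcode vector and the immunodeficient host, and the age and sex of the mice were not given in the sources used here.

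Glycolysis turns glucose into pyruvate in a chain of cytosolic enzymes, and lactate dehydrogenase then turns pyruvate into lactate, which monocarboxylate transporters export. Under low oxygen the prolyl hydroxylases of the EGLN family stop marking the HIF alpha subunits for degradation, and HIF1 and HIF2 raise transcription of glucose transporters, most glycolytic enzymes and many other genes. HIF binds a short core, RCGTG, near its target genes. MDA-MB-231 is known as a strongly glycolytic line that exports lactate through MCT4, the product of SLC16A3, and lacks MCT1, the product of SLC16A1.

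The first experiment had sample totals between 11.8 and 82.2 in units of 1000000 counts, and the retransplantation between 23.4 and 32.3. Subclone 13 of mouse 1 was sequenced as 3 libraries per organ, which were summed and counted as 1 sample. Over the 37 members tested, the coefficient of variation among those 3 libraries had a median of 6.22% in liver, 7.86% in lung and 6.4% in tumour, against medians of 14.8% to 40.1% among 3 mice. Those 3 libraries came from runs 1, 2 and 3. In every other sample of the first experiment the mouse and the run coincided, so that for these the effects of mouse and run cannot be told apart. Defining markers of the line were present: the summed level of VIM, CD44, AXL, EGFR, FN1 and MSN lay between 6753 and 20153 CPM (counts per 1000000, scaled by edgeR's TMM factors) in all 24 samples. That sum was lower in subclone 2 lung, at 6753 to 9691 CPM, than in subclone 2 tumours, at 11300 to 17249 CPM. ESR1, PGR, CDH1 and EPCAM, listed as low in this line, summed to between 12.0 and 59.4 CPM in all 24 samples. EPCAM led them in every group. Its mean was 18.7 CPM in tumour and 43.6 CPM in liver for subclone 2, and 23.2 and 39.1 CPM for subclone 13. Erythroid markers (HBB, HBA1, HBA2 and ALAS2) summed to at most 1.37 CPM in the first experiment and reached 10.6 CPM in retransplanted lung. Among 6 hepatocyte markers in the first table the sum was carried by SERPINA1, with a group mean of up to 179 CPM, and 4 or 5 of the 6 stayed below 1 CPM in every sample of each group. Its sum lay at 140.7 to 236 CPM in subclone 13 tumours, 89.2 to 109 CPM in subclone 13 lung and 170.3 to 213 CPM in subclone 13 liver, against 59.8 to 67.4, 32.3 to 87.7 and 26.3 to 56.8 CPM in subclone 2. The 4 endothelial markers, led by PECAM1, summed to 28.5 to 31.3 CPM in subclone 2 liver, above the 14.5 to 16.6 CPM of its tumours and the 13.9 to 16.9 CPM of its lung. In subclone 13 they summed to 17.0 to 46.4 CPM in liver, 16.6 to 24.4 CPM in tumour and 11.9 to 16.8 CPM in lung. The 5 fibroblast markers, led by COL1A1, summed to 18.9 to 40.8 CPM in subclone 2 liver, below the 60.9 to 139 CPM of its tumours, and overlapped between the other organs compared. The 5 leukocyte markers, led by CSF1R, summed to 3.78 to 9.34 CPM in subclone 13 lung and 12.45 to 14.96 CPM in its tumours, above the 3.78 to 9.03 CPM of subclone 2 tumours. The 6 lung epithelium markers overlapped between organs, at sums between 2.44 and 10.3 CPM with 1 to 3 of the 6 at 0 in each group. All these markers are human genes counted on the human build GRCh38, while the host cells are of the mouse. Low sums therefore do not show that host cells were absent, and a marker may also be expressed by the line itself. The part of other cell types in the results below was not tested. In such bulk samples, fewer cells of a type and less RNA per cell cannot be told apart. P-values rest on the spread between the mice of a group, estimated over all groups fitted together. Where the mouse was added as a term, they rest on the spread that remained after it.

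The members whose organ differences had the smallest adjusted p were EPAS1, HK2, PGK1, SLC2A3, PDK3 and NDRG1. The 250 bases before the RefSeq transcript start (build GRCh38.p14) are shown for EPAS1, HK2, PGK1 and PDK3, 4 of these 6. Capitals mark each ACGTG or GCGTG, the 2 spellings of the HIF core, on either strand, so that CACGT and CACGC are the reverse strand matches, and a CACGTG counts for both strands.
EPAS1, chr2:46297157-46297406, plus strand: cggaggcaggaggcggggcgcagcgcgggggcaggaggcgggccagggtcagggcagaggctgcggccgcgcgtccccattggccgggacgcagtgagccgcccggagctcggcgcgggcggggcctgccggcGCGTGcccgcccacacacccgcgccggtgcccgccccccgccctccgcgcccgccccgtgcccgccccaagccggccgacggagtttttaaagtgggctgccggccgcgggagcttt
HK2, chr2:74833877-74834126, plus strand: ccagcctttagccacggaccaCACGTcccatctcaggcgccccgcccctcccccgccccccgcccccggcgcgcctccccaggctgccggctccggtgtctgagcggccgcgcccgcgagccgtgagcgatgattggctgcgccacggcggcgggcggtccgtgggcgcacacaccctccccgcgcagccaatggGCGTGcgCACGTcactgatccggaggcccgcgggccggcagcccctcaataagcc
PGK1, chrX:78103998-78104247, plus strand: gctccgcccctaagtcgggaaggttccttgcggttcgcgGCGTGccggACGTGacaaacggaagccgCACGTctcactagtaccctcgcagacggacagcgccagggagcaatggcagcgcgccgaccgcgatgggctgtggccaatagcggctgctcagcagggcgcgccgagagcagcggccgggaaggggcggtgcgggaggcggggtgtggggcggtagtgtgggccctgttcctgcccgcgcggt
PDK3, chrX:24465036-24465285, plus strand: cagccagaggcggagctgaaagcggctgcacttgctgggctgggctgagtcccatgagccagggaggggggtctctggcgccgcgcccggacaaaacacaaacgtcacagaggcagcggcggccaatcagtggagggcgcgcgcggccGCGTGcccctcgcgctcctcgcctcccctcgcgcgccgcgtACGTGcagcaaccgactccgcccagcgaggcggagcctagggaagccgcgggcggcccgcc
RefSeq gives 2 starts for HK2, and the window of the more 5′ one is printed. The other, chr2:74834920-74835169, holds 4 ACGTG and 2 GCGTG. In the windows printed, PGK1 and HK2 each hold 2 ACGTG and 1 GCGTG, PDK3 holds 1 of each, and EPAS1 holds 1 GCGTG and 0 ACGTG. Windows were matched for 34 members, with 62 transcript starts in all. Of these 62 windows 35.5% hold ACGTG, 37.1% hold GCGTG and 61.3% hold either. Of all 35116 RefSeq windows of this length 18.5%, 32.2% and 43.2% do. A match describes these letters only, and the genes shown moved in different directions between organs.

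Levels between genes were compared per length, as CPM per kilobase of exon, by the median over the 18 samples of the first experiment. GAPDH was the most abundant member at 1053 CPM per kb, followed by ENO1 at 386, PKM at 301, TPI1 at 261, LDHA at 253 and PGK1 at 173. HIF1A, which codes for the HIF1 alpha subunit, stood at 121 CPM per kb, and EPAS1, which codes for the HIF2 alpha subunit, at 4.98. At the lower end PDK1 and PDK3 had 1.58 and 1.51 CPM per kb, and STC2 had 0.0581. SLC16A1 gathered 62 counts over the 18 samples, with a highest value of 0.337 CPM, and did not pass the filter on low counts, so 37 of the 38 members were tested. By contrast SLC16A3 stood at 76.1 CPM per kb. The 38 genes together held between 1.20% and 2.14% of a sample's counts in the first experiment and between 0.994% and 1.73% in the retransplantation.

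In lung metastases of both subclones the log2 fold change against the primary tumour was below 0 for most members. For subclone 2 the median member log2 fold change was -0.26, with 28 of 37 below 0, beside a median of 0.05 over all 17418 genes tested. In subclone 13 the median was -0.43, with 29 of 37 below 0, beside 0.03 over all genes. Lung was below tumour in every mouse for 17 of 37 members in subclone 2, where 18% of all genes were, and for 17 of 37 in subclone 13, where 21.4% were. In all 6 pairs of mouse and subclone lung was below tumour for 15 of 37 members, where 10.7% of all genes were. These were SLC2A1, HK1, PFKL, PFKFB4, ALDOC, PGK1, ENO2, PDK3, EPAS1, EGLN1, BNIP3, BNIP3L, CA9, NDRG1 and VLDLR. Lung was above tumour in all 6 pairs for SLC2A3, LDHB and ANKRD37, 3 of 37 members, where 9.13% of all genes were. In subclone 2 the lung samples lay above all tumours for 2 members and below them for 7 (7.33% and 7.49% of genes). In subclone 13 they did so for 1 and 12 (7.37% and 9.91% of genes). edgeR's quasi-likelihood test with Benjamini-Hochberg adjustment called 0 of 37 members at an adjusted p under 0.05 in subclone 2, where 0.436% of all genes were called. At an unadjusted p under 0.05 it called 6 members (9.32% of genes), and DESeq2 called 1 (2.06% of genes). In subclone 13 edgeR called 0 members (0.419% of genes), 10 members had an unadjusted p under 0.05 (7.76% of genes), and DESeq2 called 4 (1.94% of genes). Because tumour, lung and liver came from the same animals, the test was also run with each mouse as a term, which compares organs within mice. With that mouse term edgeR called 2 members in subclone 2, NDRG1 lower and ANKRD37 higher (3.05% of genes). It called 6 in subclone 13, all lower: PGK1, EPAS1, NDRG1, SLC2A1, HK1 and PDK3 (2.89% of genes in either direction, 2.12% lower).

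Liver metastases showed no such shared direction, and a few members stood out in both subclones. The median member log2 fold change of liver against tumour was -0.04 in subclone 2 and 0.03 in subclone 13, beside 0.05 and 0.02 over all genes. Liver was above tumour in all 6 pairs for SLC2A3 and PFKFB3, 2 of 37 members, where 4.72% of all genes were. It was below tumour in all 6 pairs for HK1, PFKFB4, ALDOC, ENO2 and EPAS1, 5 of 37 members, where 6.37% were. In subclone 2 the liver samples lay above all tumours for 4 members and below them for 4 (4.32% and 5.10% of genes). In subclone 13 they did so for 1 and 4 (5.22% and 7.97% of genes). edgeR without the mouse term called 0 members in subclone 2 (0.287% of genes), 7 had an unadjusted p under 0.05 (6.65% of genes), and DESeq2 called 3 (1.44% of genes). In subclone 13 edgeR called 0 (0.385% of genes), 5 had an unadjusted p under 0.05 (5.98% of genes), and DESeq2 called 1 (1.41% of genes). With the mouse term edgeR called SLC2A3, HK2 and ANKRD37 higher and PFKFB4 lower in subclone 2, 4 members (1.68% of genes). In subclone 13 it called SLC2A3 higher and EPAS1 lower, 2 members (1.83% of genes). The dot plot of metastasis against tumour sets the members side by side.

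**Figure D1:**
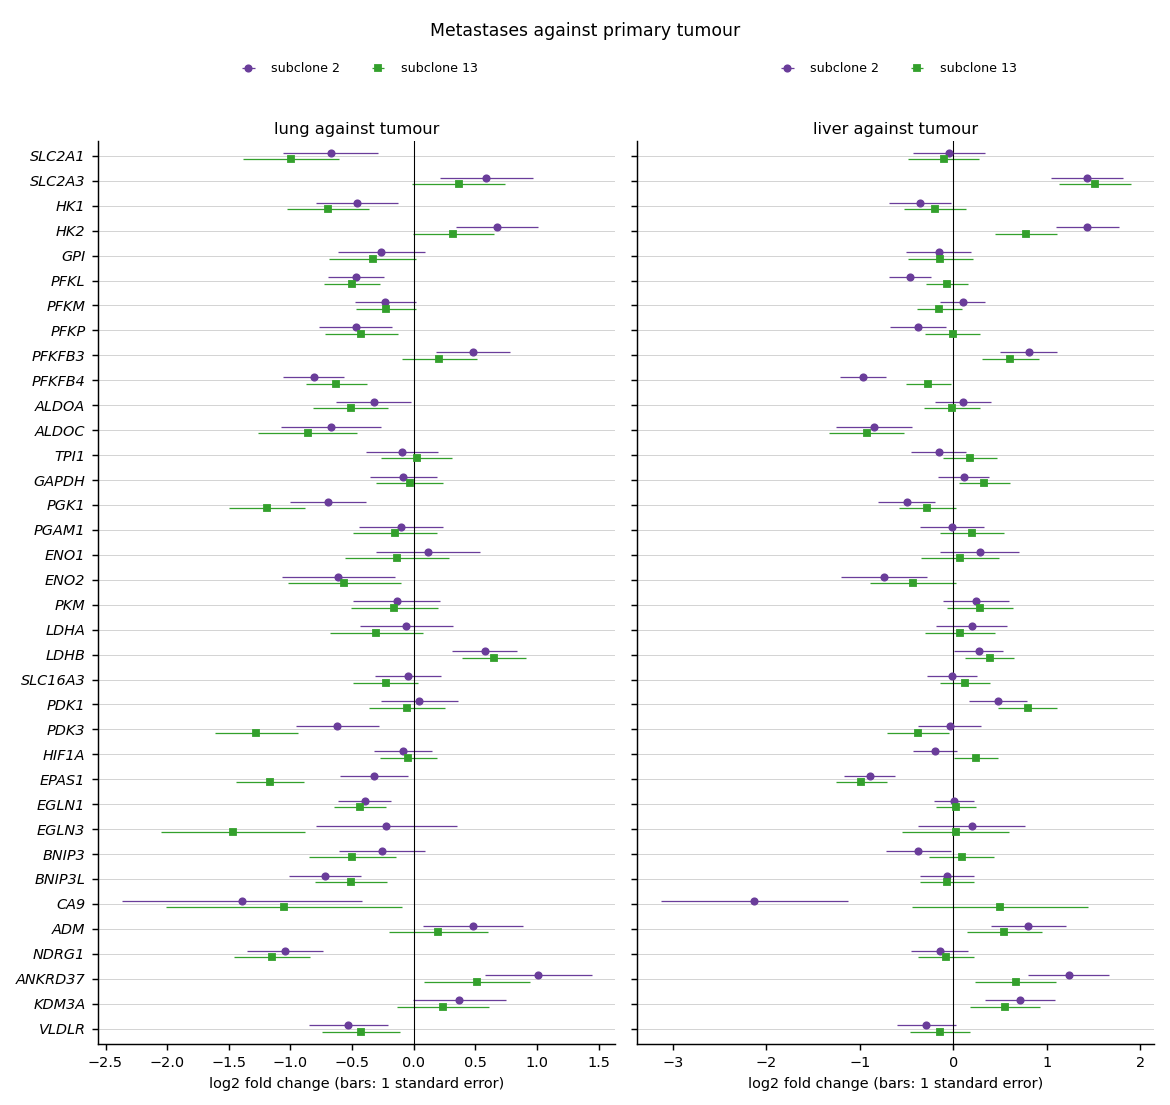
Log2 fold change of 36 members in lung (left) and liver (right) metastases against the primary tumour, for subclone 2 (circles) and subclone 13 (squares), from edgeR without the mouse term, with bars of 1 standard error and members ordered by role. STC2, with few counts, is not drawn. Most points lie below 0 in lung, while in liver SLC2A3 lies at 1.43 and 1.51 and EPAS1 at -0.90 and -0.98.

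Levels in lung were lower than in liver for most members. The median log2 fold change of lung against liver was -0.38 in subclone 13, with 34 of 37 members below 0, and -0.20 in subclone 2, with 27 of 37 below 0, beside 0.01 over all genes in each. Lung was below liver in every mouse for 21 of 37 members in subclone 13, where 19.8% of all genes were, and for 10 of 37 in subclone 2, where 19.1% were. No member was above liver in every mouse in subclone 2 or 13, where 19.5% and 21.5% of all genes were. SLC2A1, HK1, PKM, LDHA and NDRG1 were lower in lung in all 6 pairs, 5 of 37 members, where 8.81% of all genes were. All lung samples lay below all liver samples for 0 members in subclone 2 and 7 in subclone 13 (6.10% and 5.54% of genes). They lay above for 0 in each (5.93% and 5.23% of genes). edgeR called 0 members in subclone 2 (0.023% of genes) and 0 in subclone 13 (0% of genes), and 4 and 8 members had an unadjusted p under 0.05 (9.29% and 4.55% of genes). With the mouse term edgeR also called 0 and 0 (2.95% and 0.276% of genes), and DESeq2 called 0 and 0 (1.45% and 0.339% of genes). The difference between subclones was tested for each pair of organs, and edgeR called 0 members in each of the 3 tests, with and without the mouse term, as did DESeq2. Without the mouse term 0% of all genes were called in each. With it 0.00574% were called for liver against tumour and 0% for the others, and DESeq2 called 0% for lung against tumour, 0.0172% for liver against tumour and 0.023% for lung against liver. At an unadjusted p under 0.05 edgeR without the mouse term picked EPAS1 for lung against tumour, 1 of 37 members (0.792% of genes). It picked 0 members for liver against tumour and for lung against liver (1.71% and 1.98% of genes).

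Glucose enters these cells through GLUT1, the product of SLC2A1, and the high-affinity GLUT3, the product of SLC2A3. SLC2A3 (chr12:7919230-7936275, GRCh38) measured 145, 158 and 332 CPM in the subclone 2 tumours of mice 1, 2 and 3, and 462, 854 and 396 CPM in their liver metastases. In subclone 13 it measured 237, 242 and 421 CPM in tumour and 863, 811 and 897 CPM in liver. Liver and tumour did not overlap in either subclone. SLC2A3 in liver had a log2 fold change of 1.43 ± 0.38 (SE) in subclone 2, with an edgeR adjusted p of 0.196 without the mouse term and 0.0118 with it. In subclone 13 it was 1.51 ± 0.39, with an edgeR adjusted p of 0.131 without the mouse term and 0.00764 with it. In subclone 2 mouse 2 held the highest liver value. With the mouse term the log2 fold change was 0.96 without that mouse (edgeR adjusted p of 0.28) and 2.05 without mouse 3. The call with the mouse term also ended without mouse 1 in both subclones (edgeR adjusted p of 0.0907 and 0.0897), and in subclone 13 without mouse 2 (edgeR adjusted p of 0.0908). In lung SLC2A3 measured 183, 293 and 480 CPM in subclone 2 and 364, 372 and 425 CPM in subclone 13, between tumour and liver in the group means.

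SLC2A1 (chr1:42925375-42959176) went the other way in lung. In subclone 13 it measured 528, 342 and 708 CPM in the tumours of mice 1, 2 and 3, 371, 201 and 220 CPM in lung, and 628, 329 and 511 CPM in liver. Lung was the lowest organ in each mouse, although the ranges of lung and tumour overlapped between mice. The log2 fold change of lung against tumour was -0.99 ± 0.39, with an edgeR adjusted p of 0.45 without the mouse term and 0.0271 with it. That call ended without mouse 2 (edgeR adjusted p of 0.199) or without mouse 3 (0.242 by edgeR). In subclone 2 SLC2A1 measured 551, 349 and 722 CPM in tumour, 485, 272 and 261 CPM in lung and 780, 360 and 427 CPM in liver, and edgeR gave an adjusted p of 0.652 for lung against tumour, 0.139 with the mouse term.

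The ratio of SLC2A3 to SLC2A1, in CPM per kb, was 0.20, 0.35 and 0.35 in subclone 2 tumours and 0.34, 0.54 and 0.46 in subclone 13 tumours, below 1 in all 6. In subclone 13 liver it was 1.05, 1.89 and 1.35, above 1 in each mouse. Subclone 2 liver ranged from 0.45 to 1.82, subclone 2 lung from 0.29 to 1.41, and subclone 13 lung from 0.75 to 1.48. These ratios carry no test of their own.

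**Figure D2:**
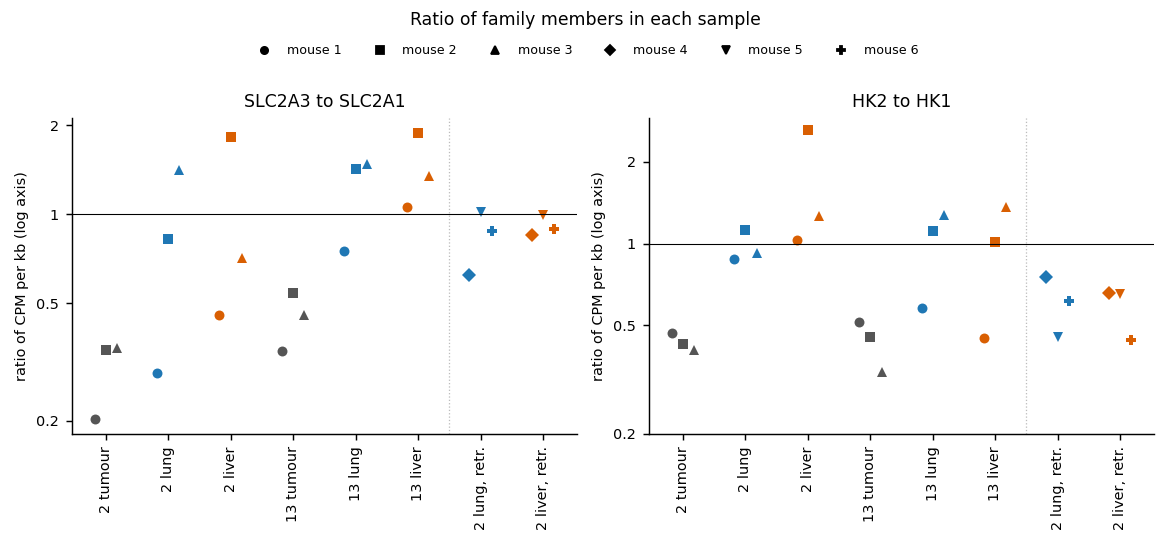
Ratio of SLC2A3 to SLC2A1 (left) and of HK2 to HK1 (right) in each sample, both in CPM per kb on a log axis, by subclone and organ, with a symbol for each mouse and the retransplantation to the right of the dotted line. Tumour samples of both subclones lie below 1 in both panels, at 0.20 to 0.54 and 0.34 to 0.52.

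Hexokinases trap glucose as glucose 6-phosphate. HK2 (chr2:74833981-74893359), the inducible form, measured 101, 57.7 and 78.0 CPM in subclone 2 tumours, 160, 125 and 93.8 CPM in lung and 211, 299 and 131 CPM in liver. Liver was above tumour in each mouse with no overlap. The log2 fold change was 1.43 ± 0.34, with an edgeR adjusted p of 0.103 without the mouse term, 0.0192 with it, and 0.044 without the mouse term when mouse 1 was left out. Without mouse 2, whose liver held the highest value, the log2 fold change with the mouse term was 0.89 (edgeR adjusted p of 0.369). In subclone 13 HK2 measured 111, 65.5 and 59.8 CPM in tumour and 90, 144 and 172 CPM in liver, so mouse 1 went against mice 2 and 3.

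HK1 (chr10:69269984-69401884), the constitutive form, was lower in both metastatic sites than in the tumour in all 6 pairs. Subclone 13 samples measured 223, 150 and 184 CPM in tumour and 167, 86.5 and 89.5 CPM in lung, with overlapping ranges. HK1 in lung had a log2 fold change of -0.70 ± 0.33, with an edgeR adjusted p of 0.643 without the mouse term and 0.0271 with it. That call ended with any mouse left out, with edgeR adjusted p of 0.0541, 0.258 and 0.269 without mice 1, 2 and 3. Per length the HK2 to HK1 ratio was 0.47, 0.43 and 0.40 in subclone 2 tumours and 1.03, 2.61 and 1.27 in subclone 2 liver. Subclone 13 tumours had 0.52, 0.45 and 0.34, and subclone 13 liver had 0.45, 1.02 and 1.36.

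The bifunctional PFKFB enzymes set the level of fructose 2,6-bisphosphate, which activates phosphofructokinase. PFKFB3 (chr10:6144934-6254644), whose product favours synthesis, was higher in subclone 13 than in subclone 2 in every organ of every mouse. In tumours it measured 113, 104 and 158 CPM in subclone 2 and 258, 337 and 330 CPM in subclone 13. In lung the values were 138, 152 and 232 against 363, 287 and 418 CPM, and in liver 175, 266 and 213 against 322, 375 and 717 CPM. The subclones did not overlap in any of the 3 organs. The log2 fold change of subclone 13 against 2 was 1.31 ± 0.31 in tumour, 1.03 ± 0.31 in lung and 1.11 ± 0.31 in liver. Without the mouse term the edgeR adjusted p values were 0.178, 0.286 and 0.192, and with it 0.00555, 0.0167 and 0.02, in that order. The tumour call ended without mouse 2 or 3 (edgeR adjusted p of 0.227 and 0.0533), the lung call without any of the mice, and the liver call without mouse 1 or 3 (edgeR adjusted p of 0.0934 and 0.384).

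PFKFB4 (chr3:48517684-48562015), the other hypoxia-inducible form, measured 53.6, 42.8 and 47.9 CPM in subclone 2 tumours, 31.6, 23.2 and 27.4 CPM in lung and 26.9, 25.6 and 21.5 CPM in liver. Both metastatic sites lay below all tumours. In liver the log2 fold change was -0.96 ± 0.25, with an edgeR adjusted p of 0.148 without the mouse term and 0.0308 with it. With any mouse left out the edgeR adjusted p with the mouse term was between 0.0694 and 0.217. Subclone 13 tumours measured 45.8, 47.3 and 59.5 CPM, and their lung metastases 25.1, 35.9 and 38 CPM. The PFKFB3 to PFKFB4 ratio per kb was 2.10 to 3.29 in subclone 2 tumours and 6.5 to 10.4 in subclone 2 liver, without overlap.

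Of the 15 enzymes from hexokinase to pyruvate kinase, HK1, HK2 and PGK1 passed a test between organs with the mouse term. PGK1 (chrX:77910739-78129296), which makes ATP in the payoff phase, measured 1478, 1083 and 1341 CPM in subclone 13 tumours, 630, 490 and 587 CPM in their lung metastases and 991, 1085 and 1144 CPM in liver. Lung lay below both other organs without overlap. The log2 fold change of lung against tumour was -1.19 ± 0.31, with an edgeR adjusted p of 0.12 without the mouse term and 0.00496 with it, while DESeq2 gave 0.00795. Without mouse 2 or 3 the edgeR adjusted p with the mouse term was 0.0577 and 0.0974. In subclone 2 PGK1 measured 1341, 909 and 1059 CPM in tumour and 912, 545 and 587 CPM in lung, lower in each mouse, with an edgeR adjusted p of 0.479, and 0.0794 with the mouse term.

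ALDOC (chr17:28573115-28577264), the brain-type aldolase, had the lowest level per length of these enzymes, at a median of 2.80 CPM per kb. It measured 6.25, 8.15 and 12.5 CPM in subclone 2 tumours and 5.84, 5.72 and 3.51 CPM in liver, and 14.7, 15.7 and 25.4 CPM in subclone 13 tumours against 4.86, 13.5 and 11.1 CPM in liver. Tumours lay above liver in both subclones without overlap, and edgeR gave adjusted p of 0.76 and 0.732. Over the 15 enzymes the median log2 fold change of lung against tumour was -0.26 in subclone 2 and -0.33 in subclone 13, with 2 of 15 above 0 in each. GAPDH differed little between lung and tumour, with a log2 fold change in lung of -0.08 in subclone 2 and -0.03 in subclone 13. TPI1, which interconverts the triose phosphates, had -0.09 and 0.02. ENO1, HK1, PGAM1 and the lactate dehydrogenase gene LDHA were highest in mouse 1 in all 6 groups, 4 of 37 members, where 9.02% of all genes were. ENO2 and STC2 were lowest in mouse 1 in all 6, 2 of 37, where 9.57% of all genes were. Per length ENO1 exceeded ENO2 by 12.8 to 43.6 times in mouse 1 and by 3.76 to 12.2 times in mice 2 and 3.

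Of 5 tested genes for the fate of pyruvate and lactate, 1 passed a test between organs. PDK3 (chrX:24465221-24541862), a kinase that switches off pyruvate dehydrogenase, measured 11.4, 9.22 and 9.83 CPM in subclone 13 tumours, 4.59, 3.27 and 4.67 CPM in lung and 8.64, 8.17 and 6.5 CPM in liver. Lung lay below both other organs without overlap. Against tumour the log2 fold change was -1.28 ± 0.34, with an edgeR adjusted p of 0.137 without the mouse term and 0.0317 with it, and DESeq2 gave 0.0117. Its edgeR adjusted p with the mouse term was 0.131, 0.253 and 0.215 without mice 1, 2 and 3. In subclone 2 PDK3 measured 9.04, 10.6 and 6.82 CPM in tumour and 5.97, 4.91 and 6.39 CPM in lung, without overlap, and edgeR gave an adjusted p of 0.62, 0.306 with the mouse term. LDHB, whose product favours pyruvate formation, was higher in lung than in tumour in all 6 pairs, with log2 fold changes of 0.57 ± 0.26 and 0.65 ± 0.26 and edgeR adjusted p of 0.514 and 0.477. In lung the LDHA to LDHB ratio per kb was 10.9 to 17.3 in subclone 2 and 8.83 to 10.3 in subclone 13, below the 18 to 24.9 and 17.2 to 21.0 of the tumours. The count of LDHB may be affected, since 33.4% of its exon bases also belong to another annotated gene. That gene gathered 5 counts over the 18 samples of the first experiment, against 29323 for LDHB. PDK1, another such kinase, measured 20.9, 44.6 and 64.3 CPM in subclone 13 liver and 23.6 to 25.6 CPM in the tumours, so mouse 1 went against mice 2 and 3.

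All 4 oxygen sensing genes had log2 fold changes below 0 in the lung of both subclones, and EPAS1 passed the test with the mouse term in subclone 13. EPAS1 (chr2:46293667-46386703) measured 66.7, 74.7 and 82.4 CPM in subclone 13 tumours, 34.1, 28.7 and 37.0 CPM in lung and 32.4, 33.1 and 47.7 CPM in liver. Both metastatic sites lay below all tumours. For lung the log2 fold change was -1.17 ± 0.28, with an edgeR adjusted p of 0.0812 without the mouse term, the smallest of any member between organs, and 0.00678 with it. For liver it was -0.98 ± 0.28, with an edgeR adjusted p of 0.204 without the mouse term and 0.0198 with it. The lung and liver calls ended without mouse 2 (edgeR adjusted p of 0.153 and 0.251) or mouse 3 (0.0993 and 0.109 by edgeR). In subclone 2 EPAS1 measured 35.7, 53.3 and 65.7 CPM in tumour, 24.8, 46.7 and 52.4 CPM in lung and 28.5, 29.9 and 24.8 CPM in liver. There the liver lay below the tumour without overlap, with a log2 fold change of -0.90 ± 0.28 and an edgeR adjusted p of 0.296, 0.0565 with the mouse term.

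HIF1A differed little between organs, with log2 fold changes between -0.28 and 0.24 in the 6 organ comparisons of the first experiment. It was higher in subclone 13 than in subclone 2 in all 9 pairs of organ and mouse. In liver it measured 684, 1047 and 852 CPM in subclone 13 and 498, 480 and 493 CPM in subclone 2, without overlap, at a log2 fold change of 0.81 ± 0.23. edgeR gave an adjusted p of 0.225, 0.0536 with the mouse term, and DESeq2 gave 0.0463. EGLN3 (chr14:33924231-34462774), a prolyl hydroxylase that is itself induced by HIF, measured 24.5, 13.2 and 19.5 CPM in subclone 13 tumours, 7.67, 4.15 and 8.89 CPM in lung and 10.2, 18.2 and 30 CPM in liver. Lung lay below both other organs without overlap, with log2 fold changes of -1.46 ± 0.59 against tumour and -1.49 ± 0.59 against liver and edgeR adjusted p of 0.467 and 0.987. In subclone 2 liver EGLN3 ranged from 4.30 CPM in mouse 2 to 45.3 CPM in mouse 1.

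Among the 9 other genes induced by low oxygen, NDRG1 was called lower and ANKRD37 higher in the lung of subclone 2 with the mouse term. NDRG1 (chr8:133237171-133302022), a stress-response gene known to rise strongly under hypoxia, measured 1286, 870 and 1037 CPM in subclone 2 tumours, 679, 464 and 403 CPM in lung and 1413, 541 and 930 CPM in liver. In subclone 13 it measured 1225, 1046 and 1138 CPM in tumour, 525, 509 and 500 CPM in lung and 778, 1164 and 1285 CPM in liver. Lung lay below tumour without overlap in both subclones. Log2 fold changes of lung against tumour were -1.05 ± 0.31 and -1.15 ± 0.31, with edgeR adjusted p of 0.185 and 0.14 without the mouse term and 0.0308 and 0.02 with it. DESeq2 gave 0.0321 and 0.0159. Both calls ended without mouse 2 (edgeR adjusted p of 0.114 and 0.117) or mouse 3 (0.209 and 0.204 by edgeR). Against liver NDRG1 in lung had log2 fold changes of -0.90 ± 0.31 and -1.07 ± 0.31, and edgeR with the mouse term gave adjusted p of 0.0694 and 0.0791.

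ANKRD37 (chr4:185396021-185400628), a small ankyrin repeat gene known as a HIF1 target, measured 9.85, 8.98 and 16.6 CPM in subclone 2 tumours, 16.7, 19.6 and 35.4 CPM in lung and 17.0, 27.1 and 39.2 CPM in liver. Both metastatic sites lay above the tumours, without overlap but by a margin of under 1 CPM at the nearest samples. Log2 fold changes were 1.01 ± 0.43 in lung and 1.23 ± 0.43 in liver, with edgeR adjusted p of 0.456 and 0.431 without the mouse term and 0.0397 and 0.0176 with it. These calls ended without mouse 2 (edgeR adjusted p of 0.263 and 0.224) or mouse 3 (0.301 and 0.272 by edgeR). The gene overlaps UFSP2 on the opposite strand over 35.2% of its exon bases, and the library kit does not keep the strand. UFSP2 itself had log2 fold changes of -0.06 in lung and 0.09 in liver.

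CA9 (chr9:35673856-35681159), a carbonic anhydrase of the cell surface and a classical marker of hypoxia, was low and varied widely. It measured 13.7, 8.35 and 17.2 CPM in subclone 2 tumours, 6.45, 4.68 and 3.85 CPM in lung and 8.21, 0 and 1.28 CPM in liver. The value of 0 in the liver of mouse 2 allows a level of up to 0.0374 CPM, at 3 counts. Subclone 13 samples measured 12.1, 11.1 and 26.5 CPM in tumour, 6.74, 6.73 and 10.5 CPM in lung and 13.8, 17.7 and 38.8 CPM in liver. The liver values of subclone 13 lay above all 3 samples of subclone 2 liver, with a log2 fold change of 2.96 ± 1.03 and an edgeR adjusted p of 0.378, 0.0797 with the mouse term. In subclone 2 the log2 fold change of liver against tumour was -2.13 ± 1.0 (edgeR adjusted p of 0.738). Without mouse 1 it was -4.38, or -4.69 with the mouse term, where edgeR gave an adjusted p of 0.00902. Exons of ARHGEF39 on the opposite strand cover 38.5% of the CA9 exon bases. ARHGEF39 itself had log2 fold changes against tumour of 0.93 in lung and 1.14 in liver in subclone 2. In subclone 13 these were 0.74 and 0.59, and subclone 13 against 2 in liver gave -0.29. How far the overlap bears on the CA9 counts was not tested. The mitophagy receptors BNIP3 and BNIP3L were lower in lung than in tumour in all 6 pairs, with log2 fold changes between -0.72 and -0.26 and edgeR adjusted p of 0.416 or more. STC2 had 304 counts over 18 samples and was at 0 in all 3 organs of mouse 1 subclone 2, so no fold change is given for it.

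**Figure D3:**
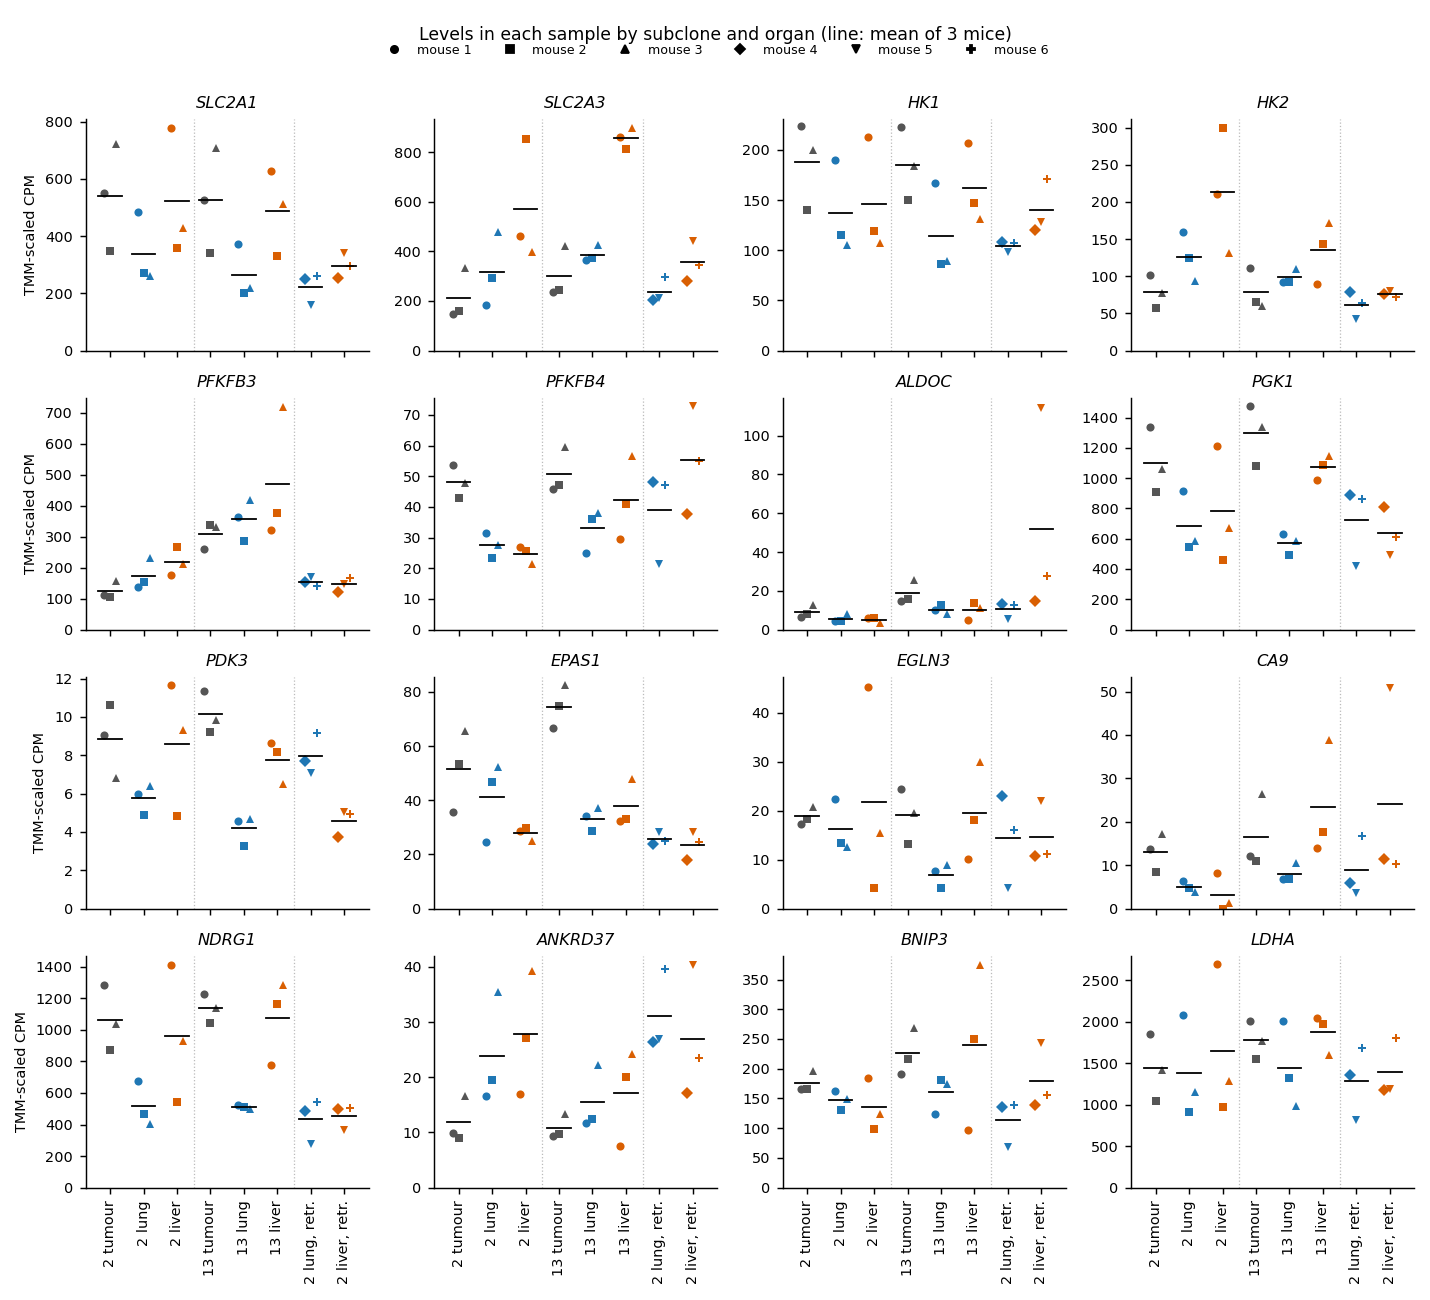
Level in every sample, in TMM-scaled CPM, of 16 members by subclone and organ, with a symbol for each mouse, a line at the mean of 3 mice and the retransplantation (retr.) to the right of the second dotted line. SLC2A3 is highest in subclone 13 liver at 811 to 897 CPM, PFKFB3 is higher in every subclone 13 group than in the matching subclone 2 group, and NDRG1 and EPAS1 are lower in subclone 13 lung than in its tumours.

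The median log2 fold change of subclone 13 against 2 was 0.23 in tumour, 0.12 in lung and 0.30 in liver, with 30, 22 and 27 of 37 members above 0, beside medians of 0.02, 0.00 and 0.00 over all genes. In tumours 20 of 37 members were higher in subclone 13 in every mouse, where 25.1% of all genes were, and 1 was lower (16.2% of genes). In lung 13 were higher and 6 lower (19.9% and 17.3% of genes), and in liver 14 were higher and 3 lower (16.7% and 15% of genes). In all 9 pairs of organ and mouse 9 of 37 members were higher, where 4.87% of all genes were: PFKL, PFKP, PFKFB3, TPI1, GAPDH, PGAM1, PKM, LDHB and HIF1A. No member was lower in all 9, where 2.99% of all genes were. All subclone 13 samples lay above all subclone 2 samples for 6 members in each organ (9.36% of genes in tumour, 6.60% in lung and 5.52% in liver). They lay below for 0 in tumour, 2 in lung and 0 in liver (4.16%, 5.90% and 4.37% of genes). edgeR called 0 members in tumour, lung and liver (0.109%, 0.184% and 0.247% of genes), and 2, 4 and 11 members had an unadjusted p under 0.05 (4.36%, 7.03% and 7.23% of genes). DESeq2 called PFKFB3 in tumour (0.482% of genes), 0 in lung (1.26% of genes) and HIF1A in liver (1.53% of genes). With the mouse term edgeR called PFKFB3 in each organ, 1 member each (0.505%, 1.54% and 1.5% of genes). GAPDH, the glyceraldehyde phosphate dehydrogenase often used as a reference gene, measured 3359, 2663 and 1949 CPM in subclone 2 liver and 5289, 4748 and 3378 CPM in subclone 13 liver, with a log2 fold change of 0.75 ± 0.28 and an edgeR adjusted p of 0.439. PFKP, the platelet-type phosphofructokinase, had a log2 fold change of 0.87 ± 0.30 in liver with an edgeR adjusted p of 0.367, 0.0637 with the mouse term.

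**Figure D4:**
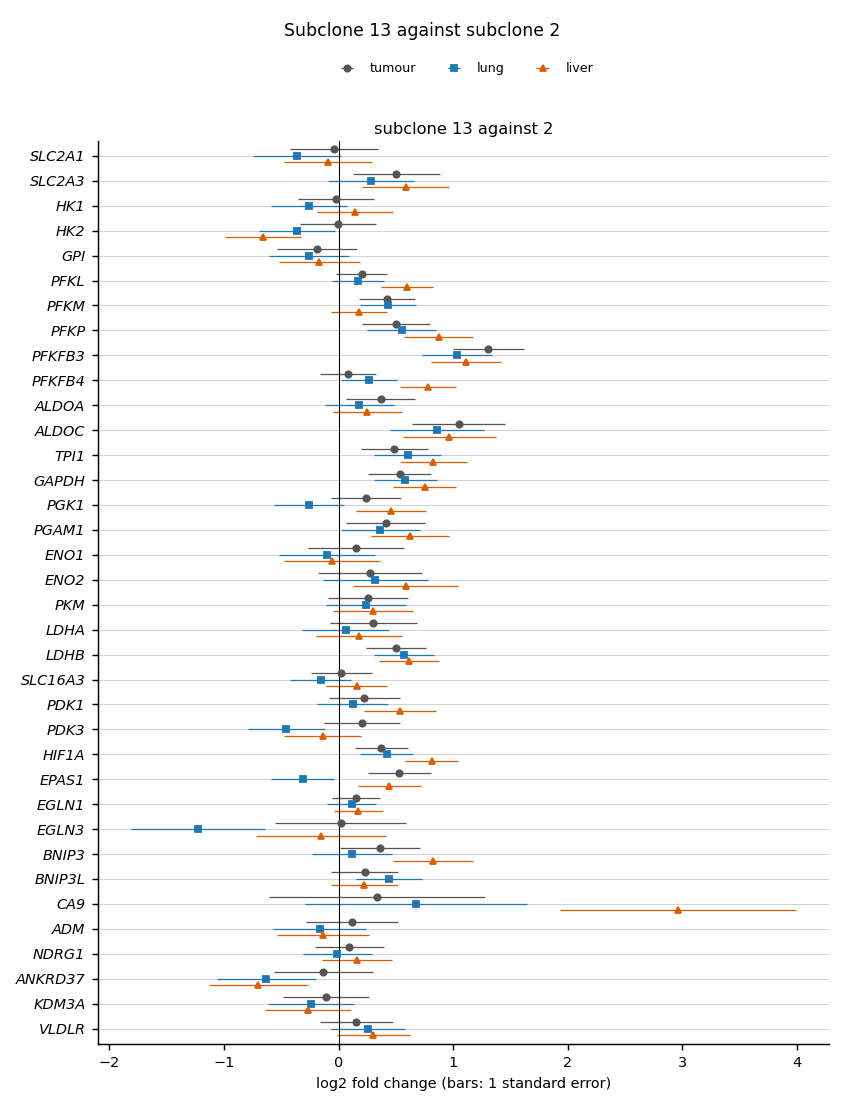
Log2 fold change of subclone 13 against subclone 2 for 36 members in tumour (circles), lung (squares) and liver (triangles), from edgeR without the mouse term, with bars of 1 standard error. PFKFB3 lies at 1.31, 1.03 and 1.11, and CA9 in liver lies at 2.96 with a standard error of 1.03.

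In the retransplantation, subclone 2 again had lower levels of most members in lung than in liver. The median log2 fold change of lung against liver was -0.16, with 27 of 37 members below 0, beside -0.03 over all 17549 genes tested. Lung was below liver in every mouse for 15 of 37 members, where 20.6% of all genes were, and above it for 3, where 20.2% were. All lung samples lay below all liver samples for 6 members and above them for 1 (9.13% and 9.98% of genes). edgeR called 0 members (0% of genes), 7 had an unadjusted p under 0.05 (12.5% of genes), and edgeR with the mouse term called 0 (0.479% of genes). DESeq2 called 1, PFKP (2.3% of genes). PFKP measured 273, 360 and 331 CPM in the liver of mice 4, 5 and 6 and 198, 188 and 186 CPM in lung, without overlap, with a log2 fold change of -0.75 ± 0.17, an edgeR adjusted p of 0.186 and a DESeq2 adjusted p of 0.00726. SLC2A3 measured 281, 442 and 343 CPM in liver and 203, 212 and 298 CPM in lung, lower in lung in each mouse, with a log2 fold change of -0.58 ± 0.24 and an edgeR adjusted p of 0.377.

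For ALDOC and CA9 the values rested on the liver of mouse 5. ALDOC measured 14.5, 114 and 27.6 CPM in the liver of mice 4, 5 and 6 and 13.1, 5.36 and 12.7 CPM in lung. Its log2 fold change was -2.33 ± 0.72 (edgeR adjusted p of 0.273), and -0.71 without mouse 5. CA9 likewise measured 11.3, 50.9 and 10.3 CPM in liver and 5.95, 3.57 and 16.8 CPM in lung, with a log2 fold change of -1.46 ± 0.74 and an edgeR adjusted p of 0.46. Without mouse 5 it was 0.08, and without mouse 6 it was -2.69.

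PDK3 went the opposite way to the first experiment, with 3.73, 5.05 and 4.96 CPM in liver and 7.70, 7.07 and 9.14 CPM in lung. The log2 fold change of lung against liver was 0.80 ± 0.25 in the retransplantation and -0.58 ± 0.34 in subclone 2 of the first experiment. The difference between the experiments was 1.39 ± 0.44, with an unadjusted p of 0.00438 and an edgeR adjusted p of 0.604. For NDRG1 the values were 496, 367 and 503 CPM in liver and 485, 274 and 543 CPM in lung, with overlapping ranges, and the difference between experiments was 0.84 ± 0.43 (edgeR adjusted p of 0.829). Over the 37 members tested edgeR called 0 differences between experiments (0.00507% of 19721 genes), 2 had an unadjusted p under 0.05 (6.22% of genes), edgeR with the mouse term called 0 (0.071% of genes) and DESeq2 called 0 (0.106% of genes). The retransplantation had its own mice and its own sequencing run, so that experiment and run cannot be told apart. The erythroid sum, carried in lung by HBB, was higher in its lung samples, at 1.0 to 10.6 CPM against 0.339 to 0.973 CPM in liver. In each organ 1 of the 4 markers was at 0. HBB measured 0.908, 3.87 and 9.02 CPM in lung and 0.127, 0.182 and 0.218 CPM in liver. ALAS2 overlapped, at 0.0939, 0.670 and 1.55 CPM in lung and 0.212, 0.760 and 0.343 CPM in liver. The hepatocyte sum, carried by SERPINA1, was 14.8 to 27.8 CPM in lung and 34.7 to 75.9 CPM in liver, with 6 of 7 markers below 1 CPM in each. Single markers of other lists were also higher in lung. COL3A1, a fibroblast collagen, measured 8.20, 18.01 and 13.9 CPM in lung and 0.806, 0.395 and 0.655 CPM in liver. PTPRC, the leukocyte antigen CD45, measured 1.41, 1.12 and 2.99 CPM in lung and 0.297, 0.334 and 0.312 CPM in liver. SFTPC, a surfactant protein of the lung epithelium, measured 0.876, 3.01 and 3.49 CPM in lung and 0, 0.0304 and 0 CPM in liver. Other markers of these lists went the opposite way. AGER, of the lung epithelium list, measured 3.51, 3.68 and 4.66 CPM in lung and 4.67, 7.36 and 6.24 CPM in liver. CD68, of the leukocyte list, measured 0.282, 0.149 and 0.227 CPM in lung and 0.339, 0.395 and 0.249 CPM in liver. PDGFRB, of the fibroblast list, was lower in lung in mice 4 and 5 and higher in mouse 6. Over whole lists the sums overlapped, at 45.9 to 88.3 CPM in lung and 24.2 to 63.4 CPM in liver for fibroblasts, 5.43 to 13.3 and 2.98 to 14.4 CPM for leukocytes, 6.95 to 9.15 and 6.19 to 8.72 CPM for lung epithelium, and 18.4 to 28.1 and 8.51 to 21.4 CPM for endothelium. These too are human genes in a mouse host, and the part of these cell types in the differences was not tested.

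**Figure D5:**
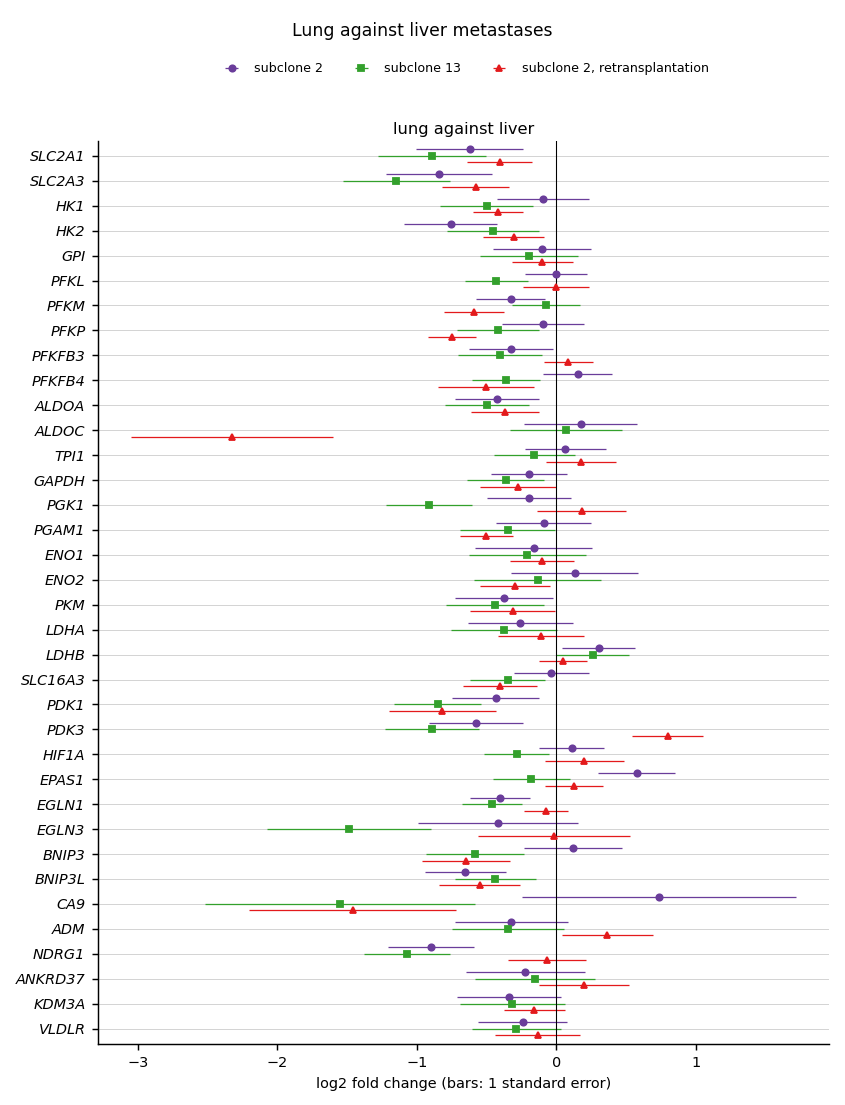
Log2 fold change of lung against liver for 36 members in subclone 2 (circles), subclone 13 (squares) and retransplanted subclone 2 (triangles), from edgeR without the mouse term, with bars of 1 standard error. Most points lie below 0, and PDK3 lies at -0.58, -0.89 and 0.80.

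Genes around the 38 were read from lists of the same pathways, also chosen with earlier results of these data known. Of 39 further hypoxia-induced genes, edgeR without the mouse term called 1 higher and 1 lower in subclone 2 lung, 3 higher and 1 lower in subclone 2 liver, 0 higher and 1 lower in subclone 13 lung, and 1 higher and 2 lower in subclone 13 liver, each against tumour (0.436%, 0.287%, 0.419% and 0.385% of all genes). With the mouse term the counts were 3 and 8, 3 and 4, 0 and 7, and 3 and 4 (3.05%, 1.68%, 2.89% and 1.83% of all genes). Their medians in lung, at -0.36 in subclone 2 and -0.62 in subclone 13, were below 0 like those of the members. LOX, which crosslinks collagen, was lower in both sites of both subclones. It measured 124, 102 and 158 CPM in subclone 2 tumours, 32.2, 27.9 and 51.3 CPM in lung and 39.5, 34.2 and 38.4 CPM in liver, with log2 fold changes of -1.79 ± 0.27 and -1.78 ± 0.27 and edgeR adjusted p of 0.00736 and 0.00566. BHLHE40, a circadian and hypoxia-responsive repressor, measured 401, 426 and 775 CPM in subclone 2 tumours and 1771, 1630 and 1504 CPM in liver, with a log2 fold change of 1.61 ± 0.27 and an edgeR adjusted p of 0.0131. DDIT4, an inhibitor of mTORC1, had log2 fold changes in liver of 2.77 ± 0.48 and 2.52 ± 0.47 in subclones 2 and 13, with edgeR adjusted p of 0.0163 and 0.0177. HILPDA, a lipid droplet protein, had 1.69 ± 0.33 in subclone 2 liver (edgeR adjusted p of 0.031), and IGFBP3, which binds insulin-like growth factors, had -1.78 ± 0.34 in subclone 13 liver (edgeR adjusted p of 0.0232). CA12, a second surface carbonic anhydrase, was higher in subclone 13 than in subclone 2, by 2.11 ± 0.35 in tumour, 1.75 ± 0.35 in lung and 2.24 ± 0.35 in liver, with edgeR adjusted p of 0.0208, 0.0473 and 0.0159.

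Leaving out a sample or a mouse ended many of these calls: of 9 such fits without the mouse term, LOX kept an edgeR adjusted p under 0.05 in 5 to 7 per comparison, DDIT4 in 2 or 4, HILPDA in 1, IGFBP3 in 2 and CA12 in 1 to 4. BHLHE40 kept it in 1 of 9 for subclone 2 lung and in 5 of 9 for liver. Of 13 genes for the entry of pyruvate into mitochondria, PDK4, another pyruvate dehydrogenase kinase, was called higher with the mouse term in subclone 2 lung and liver and subclone 13 lung, with log2 fold changes of 1.27, 1.33 and 1.34 and edgeR adjusted p of 0.00675, 0.00568 and 0.00469, where 3.05%, 1.68% and 2.89% of all genes were called. Of 12 further oxygen sensing genes tested, the HIF coactivators CREBBP and EP300 were called lower with the mouse term in the lung of subclones 2 and 13 (3.05% and 2.89% of genes), with log2 fold changes between -0.98 and -0.82. Without it edgeR called neither of them, nor PDK4, in these comparisons. Of 7 other glycolytic isoenzymes and regulators, 8 pentose phosphate genes and 5 gluconeogenic genes that could be tested in the first experiment, edgeR called 0 in each comparison with or without the mouse term, and DESeq2 called 0. Over all genes these shares were at most 3.05% with the mouse term, 0.436% without it and 2.06% by DESeq2. At an unadjusted p under 0.05 each of these lists held 0 or 1 gene per comparison, where between 0.792% and 9.32% of all genes did.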

How the data were processed

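Bulk RNA was sequenced from sorted cells after library preparation with the TruSeq RNA Library Prep Kit v2, which does not keep the strand, so overlapping genes on opposite strands cannot be told apart. The authors deposited raw read counts per Ensembl gene, and per the submitters' processing notes bcl2fastq 2.15.0.4, cutadapt, STAR, featureCounts and the build GRCh38 were used. The deposited sample table also gives a sequencing run number, used here only to describe the runs. All 30 libraries were used, and the 9 of subclone 13 of mouse 1 were summed by organ.

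Gene coordinates and exon lengths came from GENCODE v29 on GRCh38. Each experiment was fitted with edgeR 4.0.16 (limma 3.58.1, R 4.3.3) by filterByExpr, TMM scaling and the quasi-likelihood F test over all its groups, with Benjamini-Hochberg adjustment over every tested gene, calling those under 0.05. Standard errors here were derived from the F statistic, as |log2 fold change| over its square root. Alternatives were the mouse as a replicate block, DESeq2 1.42.0, RLE scaling, no filter, only the groups compared, and leaving out each sample or mouse. Summaries and figures used Python 3.11.15, pandas 2.3.3, numpy 2.4.6 and matplotlib 3.10.9. The fits were also run on simulated counts. Their spread was a fixed setting not matched to these data, so that run does not show how the fits perform here.

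The labels give the mouse number, so samples with the same number are paired by animal. Deviations from group means correlated at a median of 0.36 over 45 same-mouse pairs (lowest 0.15) and -0.25 over 90 pairs of different mice, and at 0.30 over 3 pairs in the retransplantation. Members passing the threshold in any fit, and the 3 with the largest absolute log2 fold change per organ comparison, were described by sample, and from other lists at most 5 passing genes per comparison. The members and lists were chosen with earlier results of these data known.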

Additional observations from a re-analysis of the deposited data

How the results depend on the processing

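Without the mouse term edgeR called 0 of 37 members in each of the 14 comparisons. With the mouse as a replicate block it called 2 in subclone 2 lung and 4 in subclone 2 liver, 6 in subclone 13 lung and 2 in subclone 13 liver, each against tumour, and 1 in each organ for subclone 13 against 2. The block with RLE scaling gave 2, 5, 6 and 2, then 1, 1 and 2. DESeq2 gave 1, 3, 4 and 1 against tumour, 1 for the subclones in tumour, 1 in liver, and 1 in the retransplantation. Without a filter on low counts the counts were 3 in subclone 2 liver, 4 in subclone 13 lung and 1 in subclone 13 liver against tumour, 1 for subclone 13 lung against liver, 1 for the subclones in tumour and 1 in liver, 1 for the difference between subclones in liver against tumour, and 2 in the retransplantation. With only the groups compared 2 were called in subclone 13 lung. Leaving out a sample or mouse gave 0 to 1 in subclone 2 liver, 0 to 2 in subclone 13 lung and 0 to 2 for the subclones in liver, and 0 in the other comparisons. With the block as well it gave 0 to 2 and 0 to 5 in subclone 2 lung and liver and 0 to 4 in each of subclone 13 lung and liver against tumour, 0 to 1 for subclone 2 lung against liver, and 0 to 1 in tumour and 0 to 4 in liver for the subclones. CA9 in the retransplantation turned from -1.46 to 0.075 without mouse 5, and the values without a sample or mouse ran from -2.69 to 0.075. Among the values of named genes, LOX and the 5 other pathway genes included, 745 kept direction and side of the threshold, 77 came under it, 88 (all of those pathway genes) lost it and 1 turned. The cause of these changes was not tested. With 3 mice per group, a member that missed the threshold is not shown to be equal between groups.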
